A study of Mus musculus with 4 samples.

Results

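The miR-23, miR-27 and miR-24 microRNAs were followed in mouse embryonic fibroblasts (MEFs) with and without Junb. They were chosen by their array names, mmu-miR-23a, mmu-miR-23b, mmu-miR-24, mmu-miR-27a and mmu-miR-27b, each alone or followed by an arm, with the star (passenger) strands left out. These were 5 of the 710 miRNA names on the array. Wild type clones and Junb-/- clones, which lack the AP-1 subunit JUNB, both came from embryonic day 9.5 embryos of mixed C57BL/6 and 129/Sv background and had been immortalized by the 3T3 protocol. No agent was given to either genotype. RNA of 2 wild type and 2 Junb-/- clones was hybridised, 1 clone per array, to a single-colour Febit array with 8 spots per miRNA, on which the bound miRNA is itself extended with biotinylated nucleotides. The clones are called independent by the study, but the sources used here do not say if each had its own embryo. The p-values thus speak of these clones only. In limma, the test used for each miRNA, the variance is drawn toward that of all 710 (11.8 prior and 2 residual degrees of freedom). Its standard errors, intervals and p-values for a member therefore reflect mostly that shared variance, and less the spread of the member's own clones.

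microRNAs are short RNAs that pair through their seed, bases 2 to 8, with sites in messenger RNAs and lower the output of those messengers. Hairpins for miR-23, miR-27 and miR-24 lie next to each other and are made from a shared primary transcript, of which mice and humans carry a pair of paralogous copies, the a cluster and the b cluster. The clusters are known for abundant expression in endothelial cells and fibroblasts. miR-23 and miR-27 are known to promote sprouting of endothelial cells, miR-27 to restrain formation of fat cells, and miR-24 to restrain proliferation in human cells.

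Positions are those of the RefSeq annotation of GRCm38.p6, as no build is named in the array files. The a cluster spanned 404 bases at chr8:84208518-84208921 on the plus strand, in the order Mir23a, Mir27a and Mir24-2. No protein-coding gene of that annotation overlapped it. The b cluster spanned 792 bases at chr13:63300484-63301275 on the plus strand, in the order Mir23b, Mir27b and Mir24-1, inside the protein-coding gene Aopep. Both carried a gene for a further miRNA on the opposite strand, Mir3074-2 and Mir3074-1, over the miR-24 hairpin.

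The mature miR-23b was not found in RefSeq for GRCm38.p6, so how far miR-23a and miR-23b differ in sequence is not shown here. Mature sequences of the other 4 of the 5 members were found there. They are shown because they set what the array could tell apart, and capitals mark the seed.
miR-23a-3p: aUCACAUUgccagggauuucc
miR-27a-3p: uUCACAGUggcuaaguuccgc
miR-27b-3p: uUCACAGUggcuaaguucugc
miR-24-3p: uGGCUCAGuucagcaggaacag
miR-27a and miR-27b shared the seed UCACAGU and differed by 1 substitution, C19U from miR-27a to miR-27b, counted from the 5′ end and close to the 3′ end that is extended on the array. The mature miR-24 was the same from Mir24-2 on chromosome 8 and from Mir24-1 on chromosome 13, so its signal cannot be divided between the clusters. How far the probes of paralogs with such similar sequences bound each other's miRNA was not tested, and the a and b values are therefore uncertain to that extent.

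By its median spot intensity, wild type clone 1 had the dimmest array, at 33.6 against 84.0 to 110.1 on the other arrays. The bright end had another order. Its 99th percentile was lowest in Junb-/- clone 1, at 4858, and highest in Junb-/- clone 2, at 9019, beside 6451 and 6420 in wild type clones 1 and 2. The array does not measure Junb mRNA. The median intensity over 11 probes of fibroblast and mesenchymal markers was 2517 to 3831 per array. These include the dim second arm of a listed miRNA, at 17.7 to 29.5. Over 25 probes for markers of other lineages the median was 19.5 to 43.2 per array. Single probes of that list were brighter on some arrays. Muscle miR-206 lay between 80.0 and 314.4, neuronal miR-124 between 17.3 and 312.0, and endothelial miR-126-3p between 15.5 and 212.6. The summed level of the other-lineage probes was lowest in wild type clone 1, at 567, beside 1293 in wild type clone 2 and 1493 and 1305 in the Junb-/- clones. Their part in the results was not tested. The fibroblast markers did not move one way, with 6 of the 11 log2 fold changes above 0, 5 below and a median of 0.05. By limma with an adjusted p under 0.05, reached by 1.41% of all miRNAs, 1 of the 11 was lower in Junb-/- MEFs (miR-31, log2 fold change -2.69, adjusted p = 0.00562). Of the others, none passed. Their lowest log2 fold change was -1.36 for miR-143 and their highest 1.13 for miR-199a-3p (adjusted p = 0.184 for each from limma). No other-lineage marker passed in either direction.

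All members gave strong signals, and the spots of a probe varied severalfold within an array. The brightest single spot, of miR-23a in Junb-/- clone 2, reached 15782, below the highest intensities of the arrays, which were 31174 to 58696. The median intensity of miR-23a over its 8 spots was 6201 in wild type clone 1, 5338 in wild type clone 2, 4551 in Junb-/- clone 1 and 8083 in Junb-/- clone 2. Before normalization, Junb-/- clone 2 was thus the highest for this member and Junb-/- clone 1 the lowest. The median intensity of miR-23b was 4727 and 3646 for wild type, compared with 2342 and 4955 for Junb-/- MEFs, in the same order of clones. Again the wild type clones fell between the Junb-/- clones.

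miR-27a, which shares a primary transcript with miR-23a, had a median intensity of 3061 and 1981 for wild type, compared with 1644 and 2022 for Junb-/- MEFs. Its paralog miR-27b had 2062 and 1667 for wild type, compared with 1010.8 and 1869 for Junb-/- MEFs, where a single spot of Junb-/- clone 1 stood low at 224. For both, wild type clone 1 was the highest and Junb-/- clone 1 the lowest. miR-24, made by both clusters, had a median intensity of 5945 and 5100.4 for wild type, compared with 2758 and 6056 for Junb-/- MEFs. For all 5 members the genotypes overlapped in the intensities as deposited, and Junb-/- clone 1 was the lowest clone. Its array also had the lowest 99th percentile of spot intensity.

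**Figure D1:**
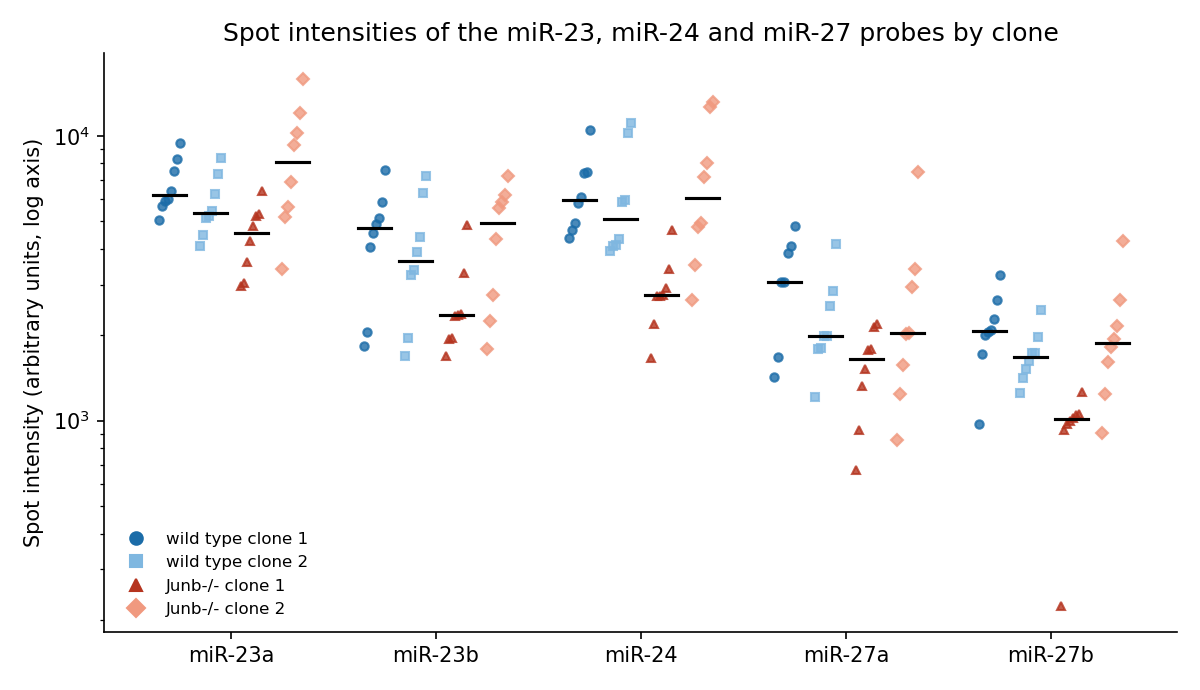
Spot intensity (arbitrary units, log axis) of the 5 members in each of the 4 clones; each point is a spot (up to 8 per miRNA and clone) and each black bar the median. Junb-/- clone 1 has the lowest median for every member, while the median of Junb-/- clone 2 lies within or above the wild type range, as for miR-23a at 8083.

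Normalization set the 4 arrays to a shared distribution, after which the level is the mean of log2(intensity + 50) over the spots. The level of miR-23a was 12.68 in wild type clone 1, 12.46 in wild type clone 2, 12.50 in Junb-/- clone 1 and 12.57 in Junb-/- clone 2. The Junb-/- clones lay between the wild type clones. Its log2 fold change, Junb-/- minus wild type, was -0.03 (standard error 0.35, adjusted p = 0.980 from limma), with a 95% interval from -0.78 to 0.71. The interval includes 0 and allows a change of either sign.

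The level of miR-23b was 12.05 and 11.80 for wild type, compared with 11.57 and 11.63 for Junb-/- MEFs. Both Junb-/- clones were the lower ones, by a log2 fold change of -0.33 (standard error 0.35, 95% interval -1.08 to 0.42), which did not pass the test (adjusted p = 0.840 from limma). All 8 of its spots had a normalized difference below 0, from -0.88 to -0.01. Spots share the RNA of a clone and are not replicates of the genotype.

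Both miR-27 paralogs had lower mean levels in Junb-/- than in wild type MEFs, without passing the test. The level of miR-27a was 11.63 and 11.06 for wild type, compared with 10.73 and 10.78 for Junb-/- MEFs, without overlap of the genotypes. Its log2 fold change was -0.59 (standard error 0.36, 95% interval -1.37 to 0.19, adjusted p = 0.650 from limma), which is 1.51-fold. The spread within wild type was nearly as large, with clone 2 minus clone 1 at -0.57 on the log2 scale. The level of miR-27b was 11.21 and 10.68 for wild type, compared with 9.93 and 10.60 for Junb-/- MEFs. Here the genotypes were separated by the narrow gap between wild type clone 2 and Junb-/- clone 2. The log2 fold change of miR-27b was -0.68 (standard error 0.38, 95% interval -1.5 to 0.14, adjusted p = 0.617 from limma), which is 1.60-fold. The Junb-/- clones themselves were 0.67 apart on the log2 scale, about the size of the difference between the genotypes. A single spot of miR-27b, the one at 224 in Junb-/- clone 1, had a normalized difference of -2.52, while its other 7 spots had -0.65 to -0.10. Without that spot, a setting chosen after seeing the data, the log2 fold change was -0.42 (adjusted p = 0.785 from limma). The levels were then 11.12 and 10.67 for wild type, compared with 10.21 and 10.75 for Junb-/- MEFs, and the genotypes overlapped.

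The level of miR-24 was 12.53 and 12.50 for wild type, compared with 11.77 and 12.24 for Junb-/- MEFs. The wild type clones were nearly equal and the Junb-/- clones both lower, by a log2 fold change of -0.51 (standard error 0.36, 95% interval -1.27 to 0.26), without passing the test (adjusted p = 0.738 from limma). All 8 spots of miR-24 and of miR-27b had a normalized difference below 0, against 7 of 8 spots of miR-27a and 5 of 8 of miR-23a. The spot of miR-27a above 0 had no value in wild type clone 1, and all 7 spots measured on the 4 arrays were below 0.

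**Figure D2:**
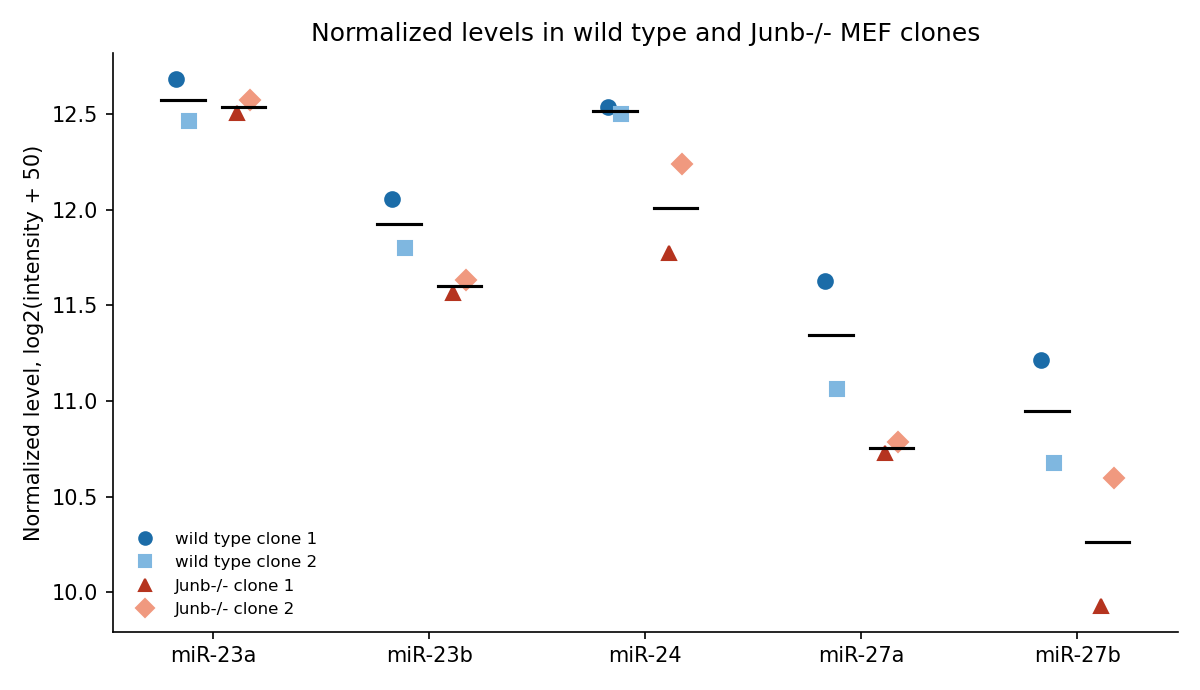
Normalized level, log2(intensity + 50), of each member in 2 wild type clones (blue) and 2 Junb-/- clones (red), with black bars at the genotype means (n = 2 clones). The Junb-/- clones lie below the wild type clones for miR-23b, miR-24, miR-27a and miR-27b and between them for miR-23a.

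None of the 5 members passed limma's threshold, an adjusted p under 0.05, where 1.41% of all 710 miRNAs did. None had an unadjusted p under 0.05 either, the smallest being 0.0962 for miR-27b, where 10.4% of all miRNAs did. All 5 log2 fold changes were below 0, as were 45.6% of all miRNAs, with a median of -0.51 over the members and of 0.04 over all miRNAs. The genotypes did not overlap, with Junb-/- lower, for 4 of the 5, beside 17.3% of all miRNAs. One of these, miR-27b, was apart only with its divergent spot included. The members are no independent series of measurements, since they come from 2 transcripts and share the same 4 RNA samples. In RNA of whole cultures, fewer expressing cells and less miRNA per cell cannot be told apart.

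These differences moved with the scaling of the arrays. With the values normalized by the authors, wild type clone 1 was the highest clone for every member (14.05 for miR-23a, beside 12.68 in wild type clone 2 and 12.84 and 13.30 in Junb-/- clones 1 and 2), and the genotypes overlapped for all 5. The same overlap was found without normalization. Scaling each array to its median raises the dim array of wild type clone 1. It gave log2 fold changes from -1.20 for miR-24 to -0.77 for miR-23a, still without a call. Under this scaling the genotypes overlapped for every member but miR-27a. The level of miR-24 was then 13.90 and 12.16 for wild type, compared with 11.45 and 12.21 for Junb-/- MEFs. With 75th percentile scaling the genotypes overlapped for all 5. Of 11 other ways to compute the levels, the genotypes stayed apart in 8 for miR-27a, 7 for miR-24, 6 for miR-23b and 5 for miR-27b. They did so in none for miR-23a. Apart from cyclic loess, and median scaling for miR-27a, the ways that kept them apart also used quantile normalization. Without wild type clone 1, the log2 fold change of miR-27a was -0.31, that of miR-27b was -0.41 and that of miR-23b was -0.20. Without Junb-/- clone 1, that of miR-24 was -0.28 and that of miR-27b was -0.35. No setting brought a member past the threshold, the lowest adjusted p being 0.362 for miR-27b with the clone number as a block.

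**Figure D3:**
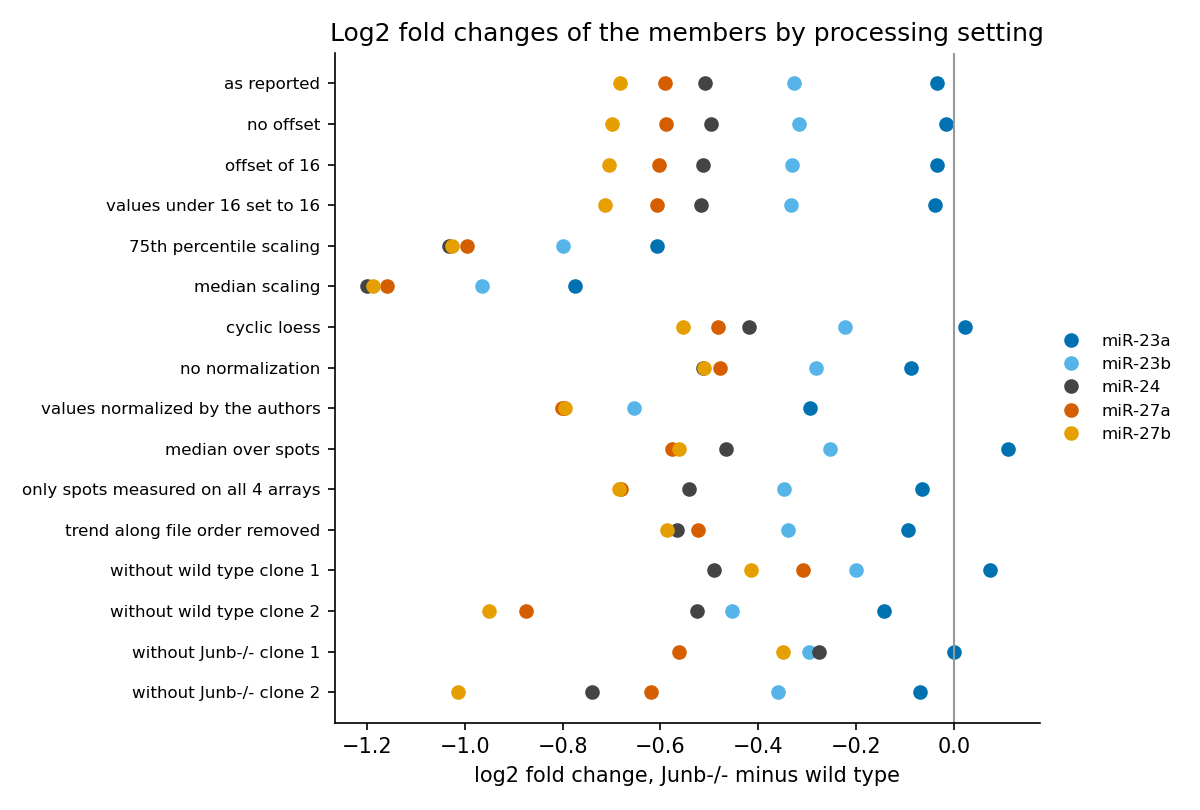
Log2 fold change (Junb-/- minus wild type) of each member, 1 point per member, under the processing as reported and under each alternative that changes the estimate. miR-23a lies nearest to 0 in every row, while miR-24, miR-27a and miR-27b reach -1.16 to -1.20 under median scaling.

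The a cluster and the b cluster were compared through the difference between paralogs within a clone. A single scaling factor per array largely cancels in this difference, but quantile normalization, which acts by intensity, need not. The normalized log2 difference of miR-23a minus miR-23b was 0.63 in wild type clone 1, 0.67 in wild type clone 2 and 0.94 in both Junb-/- clones. In these normalized levels, the clones of a genotype were thus closer to each other than to any clone of the other genotype. The balance between the paralogs differed between the genotypes by 0.29 on the log2 scale, toward miR-23a in Junb-/- MEFs. An exact permutation test over the clones, two-sided, gave p = 0.333, which is the smallest p that 2 clones against 2 allow. The ratio of the median intensities, without offset or normalization, was 1.31 and 1.46 for wild type, compared with 1.94 and 1.63 for Junb-/- MEFs. These ratios did not overlap either, but wild type clone 2 was nearer to Junb-/- clone 2 than the Junb-/- clones were to each other. Of all pairs of miRNAs on the array, 41.5% had a normalized difference without overlap of the genotypes. Across all alternatives the difference of 0.29 kept its sign, from 0.19 to 0.36. It was 0.19 with 75th percentile scaling, with median scaling and without normalization, so its size moved with the processing.

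For the miR-27 pair, the normalized log2 difference of miR-27a minus miR-27b was 0.41 and 0.38 for wild type, compared with 0.79 in Junb-/- clone 1 and 0.19 in Junb-/- clone 2. The wild type clones lay between the Junb-/- clones, so the genotypes overlapped. The genotype means differed by 0.09 (exact permutation test, two-sided, p = 1). Without Junb-/- clone 1 this value was -0.21 and without Junb-/- clone 2 it was 0.39, so that either clone sets its sign. It was also below 0, at -0.17, without the divergent spot of miR-27b. Averaged over both pairs, the a cluster minus the b cluster was 0.52 in both wild type clones, 0.87 in Junb-/- clone 1 and 0.56 in Junb-/- clone 2. The genotypes differed by 0.19 on the log2 scale (exact permutation test, two-sided, p = 0.333), and by 0.04 without Junb-/- clone 1. This average moved with the processing. It was 0.11 with 75th percentile scaling, with median scaling and without normalization, and 0.06 without the divergent spot of miR-27b, when the genotypes overlapped. In 7 of 11 other ways to compute the levels, the exact p was 0.667 to 1.

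**Figure D4:**
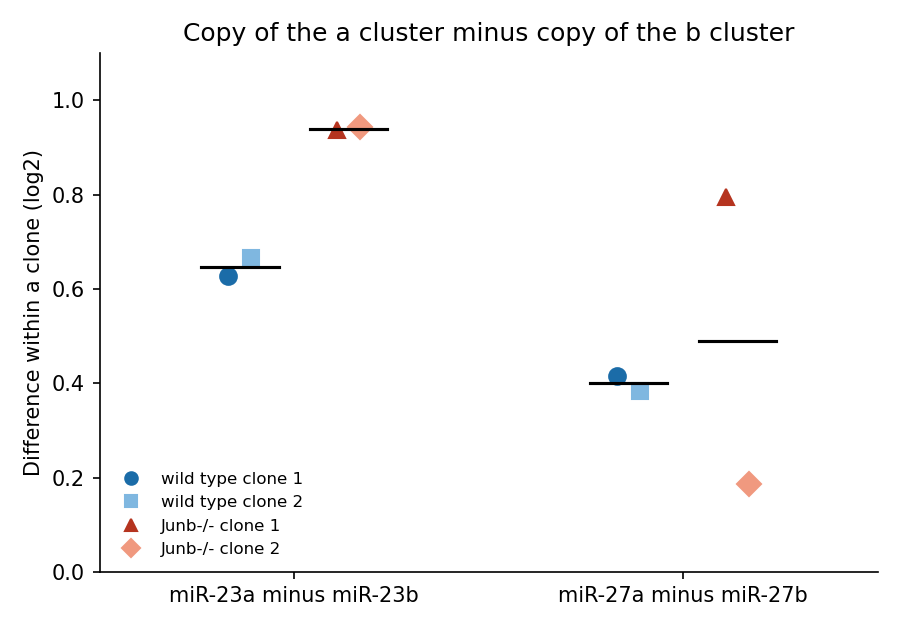
Difference of normalized log2 levels within a clone for miR-23a minus miR-23b and miR-27a minus miR-27b, with 1 point per clone and black bars at the genotype means (n = 2 clones). For miR-23 the Junb-/- clones both sit at 0.94, above 0.63 and 0.67 in wild type, while for miR-27 they sit at 0.79 and 0.19, on either side of wild type.

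Within the a cluster, miR-23a minus miR-27a was 1.05 and 1.40 for wild type, compared with 1.78 and 1.79 for Junb-/- MEFs. This difference between miRNAs of a shared transcript was larger in both Junb-/- clones, by 0.56. Within the b cluster, miR-23b minus miR-27b was 0.84 and 1.12 for wild type, compared with 1.64 and 1.03 for Junb-/- MEFs, and the genotypes overlapped. Of all 10 pairs of members the genotypes did not overlap in 5, among them each pair with miR-23a, beside 41.5% of all pairs of miRNAs on the array. The share among the members is thus near that of the array. All 10 exact p-values were between 0.333 and 1, with values of 0.667 or more after Benjamini-Hochberg adjustment over the 10 pairs. Each of these differences is of use only between clones, since the probes of different miRNAs need not give the same signal per molecule.

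The star strands of the hairpins could in principle tell the loci apart, because they differ more than the mature strands. They are shown for that reason, with the seed in capitals.
miR-24-1-5p: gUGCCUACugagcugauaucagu
miR-24-2-5p: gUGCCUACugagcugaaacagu
miR-27a-5p: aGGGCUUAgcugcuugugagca
miR-27b-5p: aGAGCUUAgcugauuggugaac
Compared base by base from the 5′ end, miR-27a-5p and miR-27b-5p differed at 8 positions, with G3A in the seed. Those of miR-24 shared their seed, and differed at 5 positions of the same comparison, U17A being the first. No gap was allowed in this comparison, so a missing or added base raises the count at the positions after it. The array lists 4 of these strands under their star names. Their signals were far dimmer than those of the mature strands. miR-24-2*, from the a cluster, had median intensities of 257 and 451 for wild type, compared with 352 and 278 for Junb-/- MEFs. Its normalized level was 8.75 and 8.40 for wild type, compared with 7.97 and 8.25 for Junb-/- MEFs, with both Junb-/- clones the lower ones. The log2 fold change of miR-24-2* was -0.46 (standard error 0.36, adjusted p = 0.738 from limma).

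miR-24-1*, from the b cluster, had median intensities of 8.66 and 92.1 for wild type, compared with 10.0 and 136.1 for Junb-/- MEFs. These values followed the clone number and not the genotype, and the log2 fold change was -0.03 (standard error 0.39, adjusted p = 0.980 from limma). For miR-27a* and miR-27b*, the log2 fold changes were 0.08 and -0.20 (adjusted p = 0.965 and 0.912 from limma), with median intensities from 18.4 to 142.0 and from 32.5 to 38.0. The offset of 50, which is of this size, shrinks fold changes of such dim probes. None of the 4 star strands passed, also at an unadjusted p under 0.05, and their median log2 fold change was -0.12.

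Among 443 of the 591 names without a star that could be matched to a mature sequence, no other miRNA shared bases 2 to 8 with miR-23a, miR-24 or miR-27. miR-128, a miRNA known from brain, carries the miR-27 seed 1 base further toward its 5′ end, shown in capitals.
miR-128-3p: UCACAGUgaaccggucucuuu
Its median intensity was 180.2 and 683 for wild type, compared with 163 and 601 for Junb-/- MEFs. It was higher in the second clone of each genotype. The log2 fold change of miR-128 was -0.45 (standard error 0.39, 95% interval -1.29 to 0.39, adjusted p = 0.785 from limma), while the wild type and Junb-/- levels overlapped.

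The profile of the members, averaged over the 5 after centring each, was 0.38 in wild type clone 1, 0.05 in wild type clone 2, -0.35 in Junb-/- clone 1 and -0.08 in Junb-/- clone 2. The most similar other miRNAs, by the root mean square distance of centred log2 levels over the 4 arrays, were miR-1941-3p (0.0535), miR-718 (0.0682), miR-15a (0.0686), miR-485 (0.106) and miR-212 (0.109). The members themselves were 0.0905 to 0.212 away from their mean. miR-15a, of a family known to restrain the cell cycle, was the brightest of these, with a median intensity of 983 to 1466. Its normalized level was 10.69 and 10.22 for wild type, compared with 9.96 and 10.09 for Junb-/- MEFs, with the genotypes apart. Its log2 fold change was -0.43 (adjusted p = 0.762 from limma). The other similar miRNAs had median intensities of 9.0 to 140.0 in these clones, around the offset, and an adjusted p of 0.737 to 0.836. With 4 arrays a short distance is easily reached, and it is given as a description.

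miR-23 and miR-27 are also counted among miRNAs of blood vessel growth. Of 19 other names from a list of endothelial and angiogenic miRNAs, none passed limma's threshold in either direction, and 4 had an unadjusted p under 0.05, beside 10.4% of all miRNAs. The median log2 fold change of that list was -0.06, with values from -1.66 for miR-18a, a member of the growth-promoting miR-17~92 cluster, to 1.67 for miR-218, which is known to target receptors of the Slit-Robo pathway (adjusted p = 0.0512 and 0.0991 from limma). The genotypes were apart, with Junb-/- lower, for 6 of the 19 and, with Junb-/- higher, for 2, beside 17.3% and 21.3% of all miRNAs.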

How the data were processed

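Spot files deposited by the authors hold a linear intensity for each spot and no columns for background, flags or controls. No source used here names the scanner, the image analysis or the background step, and the intensities, never negative, were taken as background-corrected. They also deposited log2 values normalized by a method not given in the sources used here, with medians of 6.69, 6.94, 7.07 and 6.94 in wild type clones 1 and 2 and Junb-/- clones 1 and 2. These rose with the median spot intensity (Spearman correlation of 1.00 over the 710 miRNAs, as a description). Their centring is unknown.

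Here, log2(intensity + 50) was quantile-normalized at the level of spots, and the level of a miRNA is the mean over its spots with a value (5167 to 5361 per array). As no background column exists, the planned normexp step was replaced by the offset alone. All 710 miRNAs entered limma 3.58.1 in R 4.3.3 (contrast Junb-/- minus wild type, Benjamini-Hochberg adjustment, 11.8 prior and 2 residual degrees of freedom). The offset understates the change of dim miRNAs. Tested on simulated data with 710 miRNAs, of which 200 changed, the fit recovered 19.6% of the changes of size 1 and 64.2% of the changes of size 2 (log2). The simulated clones varied independently, and each miRNA got the clone spread of a randomly drawn miRNA, whatever its brightness. More miRNAs were changed than the 1.41% called in the data. The real rates may therefore differ, also for the bright members. Permutation tests used scipy 1.17.1 under Python 3.11.15, and plots matplotlib 3.10.9.

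Members and lists were chosen with earlier results of these data known. Named miRNAs are the members, their star strands, the 5 nearest profiles, seed relatives with miR-128 and at most 3 of a further list. The 10 pairs, and the setting that leaves out the most divergent spot of miR-27b, were added after seeing the data. The alternatives were 3 other treatments of low values, 3 other normalizations and none, the authors' values, the median over spots, spots measured on all 4 arrays, removal of a trend along the file order, limma with trend and robust settings, the t-test the paper names for qRT-PCR, a replicate block by clone number, and each clone left out. A slide or scan block was not run, as none is named.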

Additional observations from a re-analysis of the deposited data

How the results depend on the processing

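With 2 arrays per genotype, precision was low. In simulation with 200 of 710 miRNAs changed, 19.6% of changes of a log2 size of 1 were recovered. That rate need not hold for these bright members. No member passed under any of 18 alternatives, or for miR-27b without its most divergent spot, with adjusted p from 0.362 to 1.00. Unadjusted, miR-27a fell under 0.05 in limma without wild type clone 2, and miR-27b did so with trend and robust settings. Log2 fold changes of miR-23b, miR-24, miR-27a and miR-27b stayed below 0 throughout. That of miR-23a was 0.023 with cyclic loess and 0.11 when spots were summarised by their median, with a range of -0.14 to 0.073 over the fits that omit a clone. For miR-27a minus miR-27b the value was -0.0045 with the authors' values, -0.014 with the spot median, -0.17 without the most divergent spot of miR-27b and -0.21 to 0.39 with a clone left out. Without normalization the median over all miRNAs was 0.23, and the members lay between -0.51 and -0.09.

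Over the whole array, 4 miRNAs were higher and 6 lower as reported. No miRNA was called when the offset or the normalization was omitted, under median scaling, with the spot median, or by the methods' t-test after adjustment (31 to 75 unadjusted), giving 0 and 0. Higher and lower calls numbered 0 and 1 once values under 16 were set to 16, 2 and 5 after 75th percentile scaling, 10 and 19 after cyclic loess, 2 and 2 for the authors' values, and 8 and 9 under trend and robust settings. Leaving out a clone gave 0 to 5 higher and 0 to 7 lower miRNAs, the count being 0 in limma for either wild type clone (71 and 62 unadjusted). Why these counts moved was not tested. A legend of the study speaks of clone pairs, but 2 pairs cannot settle a pairing (deviations of same-numbered clones correlated at 0.31). With the replicate block 6 miRNAs were higher and 10 lower, no member passed and the members' fold changes were the same.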
